A study of Mus musculus with 4 samples.

Results

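Lipid handling in sorted colonic macrophages and monocytes was examined through 9 genes: Apoe, Abca1, Abcg1, Lpl, Cd36, Fabp5, Plin2, Lipa and Npc2. They were chosen by symbol with earlier results of these data known, and all 9 were present among the 11820 genes of the matrix. Counts of called members beside the share of all genes are therefore a description. The cells came from male C57/Bl6N mice, 6 to 7 weeks old, which received chow (2 mice, replicates 9 and 11) or a coconut-based high-fat diet (HFD) with 60% fat (2 mice, replicates 1 and 3) for 1 week. Live CD45+ Lin- CD11b+ CD24- cells that carried Ly6C or CD64 were sorted, and each mouse filled 1 well of a droplet run, so that mouse and library cannot be told apart. RNA molecules were counted by unique molecular identifiers (UMIs) in 5420 cells. The question was whether these genes change as Ly6C+ monocytes turn into C1q-expressing macrophages, and whether fat-rich food raises uptake, storage or efflux genes within a stage of that path.

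Macrophages take up lipid from lipoproteins, free fatty acids and dying cells. Lipa, the lysosomal acid lipase, frees cholesterol and fatty acids from the ingested esters, and Npc2 is a soluble lysosomal protein that passes free cholesterol on for export from the lysosome. Lpl is a secreted lipase that hydrolyses the triglycerides of lipoproteins, Cd36 is a scavenger receptor and fatty acid translocase, and Fabp5 carries fatty acids in the cytosol. Plin2 coats lipid droplets, the store of surplus lipid. Abca1 and Abcg1 are transporters that move cholesterol out of the cell onto apolipoprotein A-I and high-density lipoprotein, and secreted Apoe is itself an acceptor and carrier of that cholesterol. Abca1, Abcg1 and Apoe are textbook targets of the liver X receptors (LXR). In the colon, blood monocytes lose Ly6C, gain MHC class II and then acquire the features of resident macrophages.

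Cells were placed along this path by 3 scores, each in UMIs per 10000 UMIs of a cell: Ly6c2, MHC II (H2-Aa, H2-Ab1, H2-Eb1 and Cd74) and C1q (C1qa, C1qb and C1qc). Thresholds computed from the pooled distributions lay at 3.68 for Ly6c2, 141.4 for MHC II and 23.8 for C1q. The Ly6C+ MHC II-low gate held 57 and 55 cells of chow mice 9 and 11 and 234 and 277 cells of HFD mice 1 and 3. The Ly6C- MHC II-high gate held 28, 37, 140 and 261 cells in the same order, and the C1q-high gate held 764, 1849, 458 and 653. The Ly6C+ MHC II-high gate in between held only 2 and 18 chow cells against 75 and 289 HFD cells, and the diets were not tested there. Cells below all 3 thresholds, 53, 43, 59 and 68 in the same order, entered no gate. All values below are levels in CPM, the UMIs of a gene per 1000000 UMIs of the cells of 1 mouse in 1 gate, in the order chow 9, chow 11, HFD 1 and HFD 3. Total UMIs per mouse were 3832283, 7947893, 3824228 and 5584175. Genes were tested on these sums with edgeR's quasi-likelihood test, with 2 mice per diet, and called at a Benjamini-Hochberg adjusted p under 0.01 over all genes tested in a gate. The 3' UMI counts are not divided by gene length, so levels were compared between mice and gates and not between genes.

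The gates separated the scores that defined them. C1qa stood at 163, 461, 92.0 and 121 CPM in Ly6C+ MHC II-low cells and at 6660, 7407, 5324 and 4803 in C1q-high cells. The C1q-high gate was not the same mixture in both diets. Its summed monocyte list (Plac8, Chil3, Ccr2, Fn1, Vcan and F13a1, all 6 detected) was 332 and 519 CPM in chow mice and 2747 and 3492 in HFD mice. Its summed resident macrophage list (Cx3cr1, Adgre1, Cd163, Lyve1, Mrc1, Cd81, Pf4, Cd4 and Timd4, all 9 detected) was 7061 and 7500 in chow mice and 2237 and 1562 in HFD mice. The part of these shifts in the diet comparisons of the gate was not tested, and for the 9 members subsets with less of a shift in C1q are also given. In the Ly6C+ MHC II-low gate, 3 chow cells (2 of mouse 9 and 1 of mouse 11) had over 500 immunoglobulin-related UMIs (Igha, Jchain, Cd79a and Cd79b) per 10000 and brought the summed level of these genes to 47720 and 33690, against 123 and 91.5 in HFD mice. Without them the chow levels were 369 and 271. Such cells were also among the C1q-high cells of the chow mice (3 and 7 cells), and without them the changes of Apoe, Abcg1, Cd36 and Fabp5 in that gate were -1.79, 1.08, -1.42 and 2.77, all called. None of the 6 adipocyte markers was in the matrix, and the defining markers Epcam and Cd3e were at 0 to 3.48 CPM in every gate and mouse. The summed T cell list (6 genes) reached at most 35.9 CPM and the epithelial list (5 genes) at most 22.6. The dendritic cell list (Flt3, Zbtb46, Xcr1, Itgae, Cd209a, Clec9a and Ccr7, all 7 detected there) moved with diet in C1q-high cells, at 51.4, 53.9, 185 and 168 CPM, of which Ccr7 was 13.7, 10.6, 150 and 122. In Ly6C- MHC II-high cells it was 660, 541, 778 and 652. The neutrophil list (S100a8, Csf3r and Mmp8) was 174, 115, 356 and 178 in Ly6C+ MHC II-low, 132, 67.6, 41.7 and 43 in Ly6C- MHC II-high and 14.9, 22.7, 40.9 and 39.6 in C1q-high cells. The endothelial and stromal list (5 genes) was 0, 0, 26.1 and 27.6 in Ly6C- MHC II-high and 35.0, 63.7, 23.15 and 23.5 in C1q-high cells. The part of these lists in the diet comparisons was not tested.

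Promoter sequence is shown for Apoe, Abca1 and Cd36, the 3 genes with the largest fitted differences between the ends of the path. For Abca1 and Cd36 these differences are a description without a test, on few UMIs at the lower end. The sequences are RefSeq's for GRCm38.p6 and hold the 250 bases before an annotated transcription start, on the minus strand in each case. They lie at chr7:19699189-19699438 (Apoe, the outermost of its 3 annotated starts), chr4:53159896-53160145 (Abca1) and chr5:17835897-17836146 (Cd36). Capitals mark matches, on either strand, to the nuclear receptor half-site AGGTCA or to the E-box CACGTG. The Cd36 start is one inside the annotated gene, and no entry was used for Abcg1, Lpl and Fabp5.
Apoe promoter: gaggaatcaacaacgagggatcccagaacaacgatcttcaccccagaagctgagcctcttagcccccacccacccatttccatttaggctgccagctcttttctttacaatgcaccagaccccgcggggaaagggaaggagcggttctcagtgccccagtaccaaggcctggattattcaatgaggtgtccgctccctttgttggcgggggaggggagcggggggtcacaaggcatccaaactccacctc
Abca1 promoter: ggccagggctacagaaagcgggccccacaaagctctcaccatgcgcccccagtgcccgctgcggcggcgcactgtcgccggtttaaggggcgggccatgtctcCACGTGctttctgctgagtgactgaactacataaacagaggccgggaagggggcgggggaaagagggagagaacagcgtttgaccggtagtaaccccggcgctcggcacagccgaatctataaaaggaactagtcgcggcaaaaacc
Cd36 promoter: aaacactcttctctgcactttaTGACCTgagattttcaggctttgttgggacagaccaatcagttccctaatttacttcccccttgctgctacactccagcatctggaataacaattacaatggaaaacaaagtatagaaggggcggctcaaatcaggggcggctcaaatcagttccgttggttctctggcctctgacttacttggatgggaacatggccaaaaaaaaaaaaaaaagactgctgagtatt
The Abca1 window held 1 E-box, which starts 147 bases before the start site, and the Cd36 window held 1 half-site, which starts 228 bases before it. The Apoe window held neither. Among 32851 promoter windows of this length, 14.02% held the half-site and 6.02% the E-box. Longer elements were sought as exact matches only. They were the DR4 element (the half-site, any 4 bases and the half-site again), to which LXR with its partner RXR binds, and the CLEAR element of lysosomal genes (the E-box with GT before and AC after it). No exact match lay in the windows of the 6 genes with an entry (Apoe, Abca1, Cd36, Plin2, Npc2 and Lipa), and 0.0152% and 0.24% of all windows held one. Versions of these elements with other bases were not searched for, so the search cannot show that an element is absent. Each match to these longer elements also holds the half-site or the E-box. Among the 6, Plin2 also held 1 half-site, which starts 218 bases before its start site.

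Along the path from monocyte to macrophage, Apoe and Lipa rose, while Abcg1, Lpl, Plin2, Fabp5 and Npc2 were not called between the ends. Abca1 and Cd36 are described between the ends without a test. A gene entered this contrast when it passed the filter on low counts, which asks for a UMI in at least 5% of cells, in any of the 3 gates. Abca1 and Cd36, with a UMI in 3.21% and 0.963% of Ly6C+ MHC II-low cells, did not pass there. Abca1 passed through Ly6C- MHC II-high and C1q-high cells and Cd36 only through C1q-high cells, where each is higher. Of the 7 members that passed at both ends, Apoe and Lipa were called, both higher, against 25.2% of all 5545 genes called in either direction and 12.9% called higher. Stages of the same mice were compared in 1 fit with a term for each mouse, and each difference is the mean over both diets.

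Apoe (ENSMUSG00000002985, chr7:19696109-19699188) was the most abundant of the 9 transcripts by raw UMIs and took 6.09%, 5.81%, 2.22% and 1.59% of all UMIs of C1q-high cells. Its level was 5287, 8106, 3014 and 3509 in Ly6C+ MHC II-low cells, 15970, 15700, 3390 and 3431 in Ly6C- MHC II-high cells and 60890, 58140, 22180 and 15900 in C1q-high cells. The C1q-high level exceeded both others in every mouse. The log2 difference between C1q-high and Ly6C+ MHC II-low cells was 3.01 (SE 0.12, adjusted p = 7.4e-18). Between Ly6C- MHC II-high and Ly6C+ MHC II-low cells it was 0.60 (SE 0.12, adjusted p = 0.000517) over all mice, 0.45 (adjusted p = 0.0354) without chow mouse 9 and 0.04 (SE 0.12, adjusted p = 0.882) in a fit of the HFD mice alone. Apoe and Npc2 were the members called between these gates over all mice, where 7.14% of all genes were called.

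Abca1 (ENSMUSG00000015243, chr4:53030787-53159895) was rare in monocytes. It was represented by 1, 2, 10 and 8 UMIs in Ly6C+ MHC II-low cells, or levels of 5.62, 11.5, 11.1 and 9.89, and by 244, 621, 139 and 130 UMIs in C1q-high cells, or levels of 71.2, 82.4, 74.8 and 46.4. The fitted log2 difference was 2.99 (SE 0.33). It is a description, with no test, since Abca1 was too rare to pass the filter in Ly6C+ MHC II-low cells and was admitted by gates where it is higher. Levels in Ly6C- MHC II-high cells lay in between, at 24.0, 56.4, 24.3 and 27.6, and C1q-high cells exceeded these by 1.25 (SE 0.29, adjusted p = 0.00332), a call lost without chow mouse 9 (1.05, adjusted p = 0.0666), chow mouse 11 (1.56, adjusted p = 0.0275) or HFD mouse 1 (1.05, adjusted p = 0.0801). Of the 8 members that passed the filter in both of these gates, 3 (Apoe, Abca1 and Npc2) were called, against 7.92% of all genes.

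Cd36 (ENSMUSG00000002944, chr5:17781690-17888801) had 2, 2, 1 and 6 UMIs in Ly6C+ MHC II-low cells and 404, 663, 77 and 122 UMIs in C1q-high cells, or levels of 117.9, 88.0, 41.4 and 43.5 there. In Ly6C- MHC II-high cells it had 4, 1, 11 and 10 UMIs, or levels of 48.0, 11.3, 19.1 and 11.03. The fitted log2 difference between C1q-high and Ly6C+ MHC II-low cells was 3.42 (SE 0.36). It rests on 11 UMIs in all at the lower end, in a gate where Cd36 was too rare to pass the filter. Cells in no gate are not counted here, and levels that include most of them are given with the clusters below. Against Ly6C- MHC II-high cells, where it did not pass either, the difference was 1.92 (SE 0.34). Both values are a description, with no test, since Cd36 was admitted by the gate where it is high. After cells under 1500 UMIs were left out and the rest (722, 1680, 399 and 591 C1q-high and 52, 53, 215 and 249 Ly6C+ MHC II-low cells) were thinned to 1500, 12.7%, 9.94%, 4.01% and 4.4% of C1q-high cells had a Cd36 UMI, against 1.92%, 0%, 0% and 0.402% of Ly6C+ MHC II-low cells, at median depths, over all cells of the gates before thinning, of 4215, 3871, 3781.5 and 4130 UMIs against 2932, 2874, 4016 and 2908. Without thinning, the C1q-high shares were 24.1%, 20.8%, 9.17% and 11%.

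Lipa (ENSMUSG00000024781, chr19:34492318-34527474) rose by less. It stood at 118, 69.1, 44.3 and 45.8 in Ly6C+ MHC II-low cells and at 117.3, 113, 85.1 and 68.8 in C1q-high cells, and the log2 difference was 0.70 (SE 0.18, adjusted p = 0.00305). Chow mouse 9 had nearly equal levels in both gates, and the other mice were higher in C1q-high cells. The Lipa call was lost without chow mouse 11 (0.55, adjusted p = 0.0521), HFD mouse 1 (0.61, adjusted p = 0.0796) or HFD mouse 3 (0.80, adjusted p = 0.0112). Npc2 (ENSMUSG00000021242, chr12:84754562-84773152) took a different order. It was 2832, 2735, 2436 and 2439 in Ly6C+ MHC II-low cells, 1561, 1736, 1353 and 1614 in Ly6C- MHC II-high cells and 1906, 2114, 1837 and 2061 in C1q-high cells. The Ly6C- MHC II-high level was the lowest in each mouse. Npc2 fell by 0.80 on the log2 scale from Ly6C+ MHC II-low to Ly6C- MHC II-high cells (SE 0.09, adjusted p = 3.9e-07) and was higher by 0.56 in C1q-high than in Ly6C- MHC II-high cells (SE 0.09, adjusted p = 4.8e-05).

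Plin2 (ENSMUSG00000028494, chr4:86648386-86670060) was not called between any of the 3 gates over all mice. Its level ran from 380 to 483 in Ly6C+ MHC II-low cells, from 265 to 456 in Ly6C- MHC II-high cells and from 313 to 361 in C1q-high cells, and the difference between the ends of the path was -0.21 (SE 0.11, adjusted p = 0.143). Abcg1 (ENSMUSG00000024030, chr17:31057675-31117988) differed by -0.23 between the ends (SE 0.17, adjusted p = 0.33), unlike Abca1, the other transporter of the pair, although this contrast between the genes was not tested. Lpl (ENSMUSG00000015568, chr8:68880491-68907448) was uneven between mice. It was 50.6, 34.5, 9.97 and 135 in Ly6C+ MHC II-low cells and 91.6, 33.1, 49.5 and 105 in C1q-high cells, with a difference of 0.54 (SE 0.38, adjusted p = 0.3), which was 1.57 (adjusted p = 0.00112) without HFD mouse 3. The HFD mice held both the lowest and the highest Lpl level of the monocyte gate.

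Fabp5 (ENSMUSG00000027533, chr3:10012548-10016607) rose along the path in the fit of the HFD mice alone. Over all mice the difference between C1q-high and Ly6C+ MHC II-low cells was 0.44 (SE 0.22, adjusted p = 0.12). In the HFD mice alone, fitted in all 4 gates, it was 1.38 (SE 0.19, adjusted p = 5.3e-07), among 20.6% of all 5584 genes called in that fit. The step lay between the Ly6C+ MHC II-high cells, at 192.5 and 166, and the Ly6C- MHC II-high cells, at 589 and 277, with a difference of 1.16 (SE 0.21, adjusted p = 0.000736) in a contrast that called 1.76% of genes. Apoe took the opposite course at that step and fell by 0.61 (SE 0.12, adjusted p = 0.00182), from 6095 and 4292 to 3390 and 3431. In that fit of the HFD mice, Plin2 also fell from Ly6C+ MHC II-low to Ly6C- MHC II-high cells, by 0.64 (SE 0.14, adjusted p = 0.000876), where 12.0% of genes were called. In chow mice Fabp5 was 101 and 57.6 in Ly6C+ MHC II-low, 132 and 135 in Ly6C- MHC II-high and 47.9 and 48.5 in C1q-high cells.

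**Figure D1:**
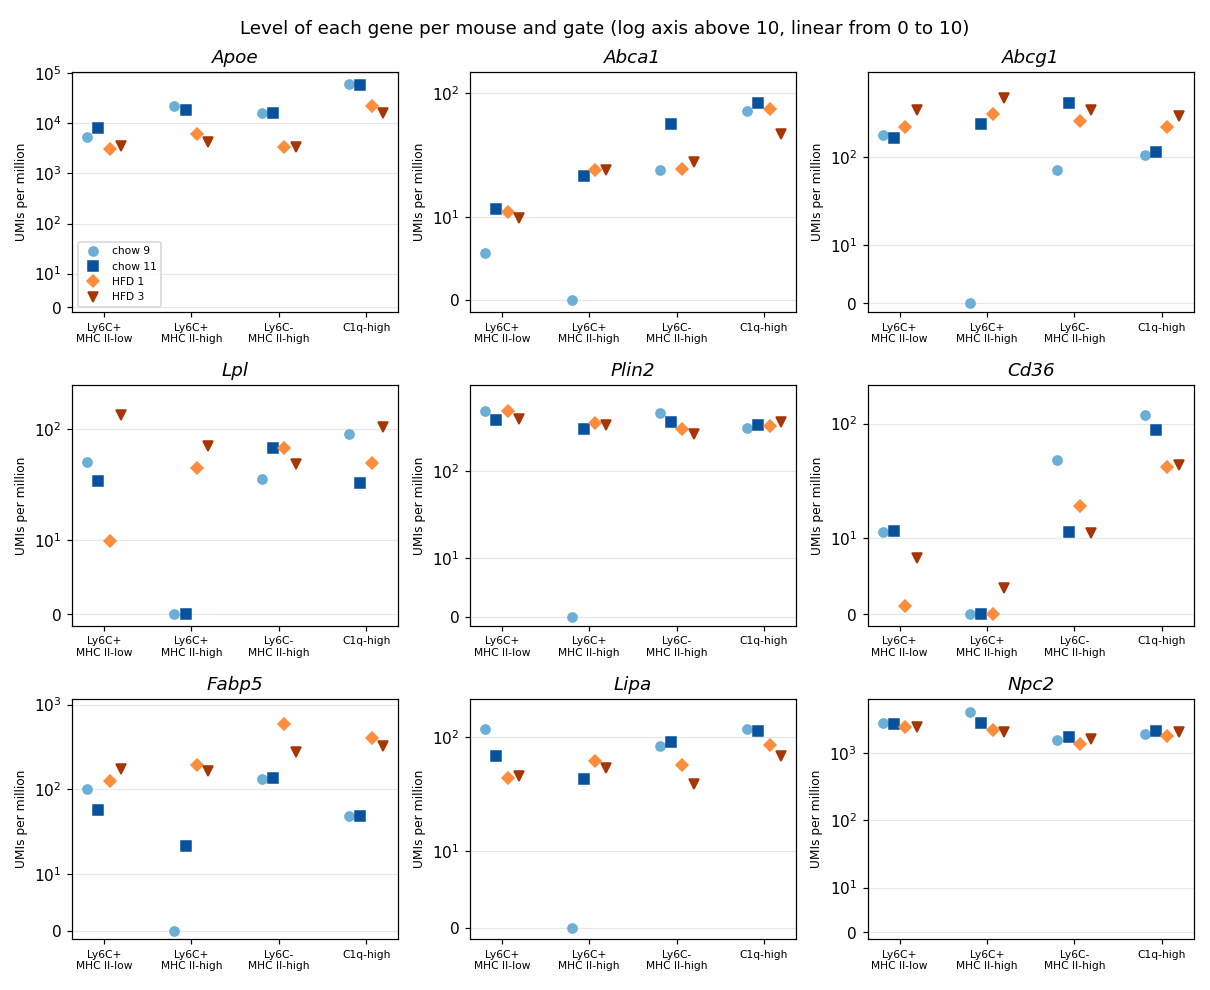
Level of each of the 9 genes in CPM (vertical axis, logarithmic above 10 and linear from 0 to 10) in the 4 gates (horizontal axis), with 1 point per mouse, blue for chow and orange or brown for HFD. Apoe of HFD mice lies below chow in every gate, Fabp5 of HFD mice lies above chow in every gate, and the chow points of the Ly6C+ MHC II-high gate rest on 2 and 18 cells.

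Between diets, 4 of the 9 genes were called in C1q-high cells, where Fabp5 and Abcg1 were higher and Apoe and Cd36 lower in HFD mice. In this gate 10.5% of the 5065 genes tested were called, 5.35% higher and 5.13% lower. In Ly6C+ MHC II-low cells 1 of 7 tested members (Apoe, lower) was called, against 0.538% of 4457 genes, and in Ly6C- MHC II-high cells 1 of 8 (again Apoe, lower), against 1.2% of 4743. The median log2 change over the members was -0.19 in C1q-high, -0.12 in Ly6C+ MHC II-low and -0.42 in Ly6C- MHC II-high cells, and the medians of all genes were -0.02, -0.02 and 0.04. Abca1 and Cd36 in Ly6C+ MHC II-low cells and Cd36 in Ly6C- MHC II-high cells were too rare to be tested. TMM normalization moved the median change of all genes from 0.16, 0.24 and 0.12 without scaling to near 0 in the Ly6C+ MHC II-low, Ly6C- MHC II-high and C1q-high gates, so that changes are relative to the typical gene.

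Apoe was lower in HFD mice in each tested gate. In Ly6C+ MHC II-low cells its mean level was 6696 ± 1993 in chow and 3262 ± 350 in HFD mice (SD, n = 2 each), and it fell by 1.17 on the log2 scale (SE 0.21, edgeR adjusted p = 0.00785). The call was lost with RLE size factors (adjusted p = 0.0112) and with sums thinned to equal depth (adjusted p = 0.113). The monocyte list of this gate was 13010, 17790, 26010 and 23730 CPM, higher in HFD mice, and its part in the Apoe change was not tested. In Ly6C- MHC II-high cells both chow mice lay close to 15840 ± 187 and both HFD mice close to 3410 ± 29.4 (SD, n = 2 each), and Apoe fell by 2.30 (SE 0.14, edgeR adjusted p = 5.4e-07). The mixture of this gate also differed between diets, with the resident macrophage list at 2473, 1556, 252 and 301 CPM and the monocyte list at 3050, 5355, 7330 and 7567, and the part of this shift in the Apoe change was not tested. In C1q-high cells the levels were 59510 ± 1942 and 19040 ± 4435 (SD, n = 2 each), and Apoe fell by 1.79 (SE 0.19, edgeR adjusted p = 0.000756). No HFD mouse reached a chow mouse in any of these gates, as for 2.58% of the 4033 genes tested in all 3. The difference between the diet effects in C1q-high and Ly6C+ MHC II-low cells was -0.77 and was not called (SE 0.23, adjusted p = 0.0622), in a test that called 1.7% of all genes. Without 1 mouse it was -0.42 (chow 9), -1.13 (chow 11), -1.13 (HFD 1) and -0.38 (HFD 3). In the monocyte gate the Apoe call was lost without chow mouse 11 (fall of 0.81, adjusted p = 0.0297) and without HFD mouse 1 (fall of 1.06, adjusted p = 0.0424). In Ly6C- MHC II-high cells it was lost without either HFD mouse (adjusted p = 0.0257 and 0.0874), and in C1q-high cells without HFD mouse 3 (fall of 1.54, adjusted p = 0.0175). Without the 3 immunoglobulin-rich cells, a check added after seeing the data, Apoe in the monocyte gate fell by 1.11 (adjusted p = 0.00346).

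Apoe was set beside other macrophage transcripts of the same cells. In each mouse the number of Apoe UMIs per UMI of the resident macrophage list was close in monocytes and in C1q-high cells, with 7.29, 7.96, 9.04 and 10.6 in Ly6C+ MHC II-low and 8.62, 7.75, 9.91 and 10.2 in C1q-high cells. It was not the same in the gates between, with 34, 15.9, 21.4 and 16.0 in Ly6C+ MHC II-high cells, where the first value rests on 4 UMIs of the list, and 6.46, 10.1, 13.5 and 11.4 in Ly6C- MHC II-high cells. The resident list was itself lower in monocytes of HFD mice, where it summed to 725, 1019, 333 and 331 CPM in Ly6C+ MHC II-low cells of the 4 mice, with Lyve1 and Timd4 at 0 in every mouse. Per UMI of C1qa, C1qb and C1qc, Apoe was not in 1 ratio, with 10.2, 7.45, 10.5 and 8.25 in Ly6C+ MHC II-low cells but 3.18, 2.9, 1.48 and 1.13 in C1q-high cells. Transcripts as abundant as Apoe can reach droplets as free RNA. Over all cells of a mouse, Apoe without TMM was 55340, 55740, 12630 and 9841 CPM, higher in chow mice. The part of free RNA in the monocyte level and in the diet differences of Apoe was not tested.

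**Figure D2:**
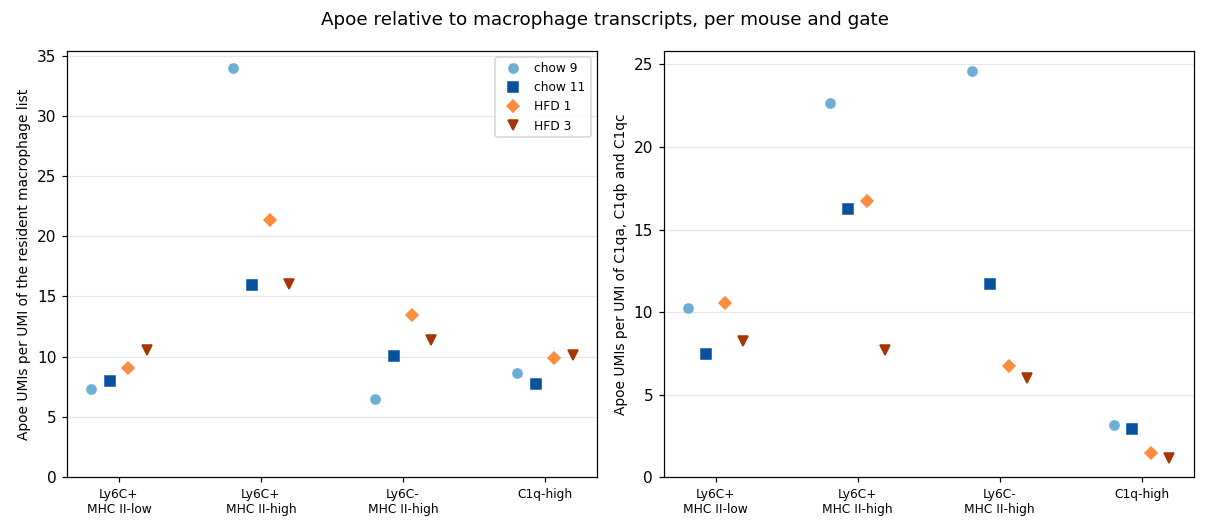
Apoe UMIs per UMI of the 9 resident macrophage genes (left) and per UMI of C1qa, C1qb and C1qc (right), by gate, 1 point per mouse. On the left the Ly6C+ MHC II-low and C1q-high gates cover similar ranges (7.29 to 10.6 and 7.75 to 10.2), and on the right the C1q-high points (1.13 to 3.18) lie below all others.

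Of the other efflux genes, Abcg1 rose in C1q-high cells of HFD mice and Abca1 was not called in a tested gate. Abcg1 in C1q-high cells was 105.6, 114, 222 and 294, with no overlap of the diets. Its mean was 110 ± 6.02 in chow and 258 ± 50.6 in HFD mice (SD, n = 2 each), a rise of 1.08 on the log2 scale (SE 0.16, edgeR adjusted p = 0.00268). The call was lost without either HFD mouse (adjusted p = 0.0139 and 0.0529), with values of 1.25 and 0.90. In Ly6C+ MHC II-low cells Abcg1 was 179.8, 167, 222 and 344, a change of 0.57 that was not called (SE 0.28, adjusted p = 0.44) and was 0.21 without HFD mouse 3 and 0.86 without HFD mouse 1. In Ly6C- MHC II-high cells the chow mice differed widely, at 72.0 (6 UMIs) and 417 (37 UMIs), and enclosed the HFD mice, at 255 and 342. Without chow mouse 11 the change there was 2.02 and passed the test (adjusted p = 0.00138), and without chow mouse 9 it was -0.56. Abca1 differed by -0.51 in C1q-high cells (SE 0.24, adjusted p = 0.161), where HFD mouse 1, at 74.8, lay between the chow mice, and by -0.71 in Ly6C- MHC II-high cells (SE 0.69, adjusted p = 0.668). Both values have the sign of the Apoe change. Without 1 mouse they ran from -0.90 to -0.15 and from -1.19 to 0.09, and the Abca1 and Apoe changes were not tested against each other.

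Of the uptake genes, Fabp5 had the largest change of the 9. In C1q-high cells it was 47.9, 48.5, 409 and 322, so that the chow mice were nearly equal and both HFD mice far above them. The means were 48.2 ± 0.419 and 365 ± 61.8 (SD, n = 2 each), a rise of 2.78 (SE 0.17, edgeR adjusted p = 8.7e-05), and it remained called without any 1 mouse, with values of 2.57 to 2.97. The Fabp5 change in Ly6C- MHC II-high cells was 1.59 (SE 0.44, adjusted p = 0.0715), from 132, 135, 589 and 277, and it passed without either chow mouse (1.56 and 1.65, adjusted p = 0.00139 and 0.00223), while it was 0.97 (adjusted p = 0.923) without HFD mouse 1 and 2.05 (adjusted p = 0.637) without HFD mouse 3. In Ly6C+ MHC II-low cells the change was 0.78 (SE 0.35, adjusted p = 0.379), from 101, 57.6, 126 and 173, and ran from 0.45 without chow mouse 11 to 1.24 without chow mouse 9. Each HFD mouse exceeded each chow mouse in all 3 gates, as for 10.6% of the 4033 genes tested in all 3, and in the single gates this held for 29.6%, 31.8% and 42.0% of genes (Ly6C+ MHC II-low, Ly6C- MHC II-high and C1q-high). The diet effect on Fabp5 was larger in C1q-high than in Ly6C+ MHC II-low cells by 1.85, and this difference was not called at 1% (SE 0.48, adjusted p = 0.0264), but it was 2.32 (adjusted p = 0.000448) without HFD mouse 3. After the same thinning to 1500 UMIs, 4.99%, 4.41%, 18.8% and 21.5% of the C1q-high cells kept had a Fabp5 UMI (unthinned 11%, 10.2%, 29.3% and 34.8%), and no cell type known to lack Fabp5 was at hand to measure its background.

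Cd36 went the other way in C1q-high cells, where it was 117.9 and 88.0 in chow and 41.4 and 43.5 in HFD mice. Its mean level was 103 ± 21.1 in chow and 42.5 ± 1.46 in HFD mice (SD, n = 2 each), and it fell by 1.41 on the log2 scale (SE 0.19, edgeR adjusted p = 0.00215). The call was lost without either HFD mouse (adjusted p = 0.0324 and 0.054), with falls of 1.40 and 1.42. Lpl was not called in any gate. It differed by 0.22 in C1q-high cells (SE 0.47, adjusted p = 0.774), where each diet held 1 high and 1 low mouse. Its direction there depended on single mice, with 1.11 without chow mouse 9, 0.62 without HFD mouse 1, -0.39 without chow mouse 11 and -0.41 without HFD mouse 3.

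The storage gene Plin2 did not pass the test in any gate. In C1q-high cells it was 313, 336, 324 and 361, the groups overlapped, and the difference was -0.07 (SE 0.13, adjusted p = 0.73), while the unscaled means, 325 and 343, lay in the opposite order. In Ly6C+ MHC II-low cells it was -0.12 (SE 0.21, adjusted p = 0.894), with the sign turned without chow mouse 9 (0.07) or HFD mouse 3 (0.01), and in Ly6C- MHC II-high cells, where both HFD mice (304 and 265) lay below both chow mice (456 and 361), it was -0.60 (SE 0.24, adjusted p = 0.213). Of the lysosomal genes, Lipa was lower in both HFD mice than in both chow mice in each of the 3 tested gates, as 2.58% of genes were in all 3 and 15.1%, 18.6% and 23.2% in the Ly6C+ MHC II-low, Ly6C- MHC II-high and C1q-high gates singly, and was not called. Its log2 differences were -1.19 (SE 0.40, adjusted p = 0.209), -0.97 (SE 0.50, adjusted p = 0.359) and -0.73 (SE 0.17, adjusted p = 0.0159) in these gates. Npc2 differed by -0.33, -0.23 and -0.19, with adjusted p of 0.462, 0.563 and 0.308. Without 1 mouse, Lipa in Ly6C+ MHC II-low cells ran from -1.498 (chow 11) to -0.75 (chow 9), and Npc2 in Ly6C- MHC II-high cells from -0.37 (HFD 3) to -0.10 (HFD 1).

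**Figure D3:**
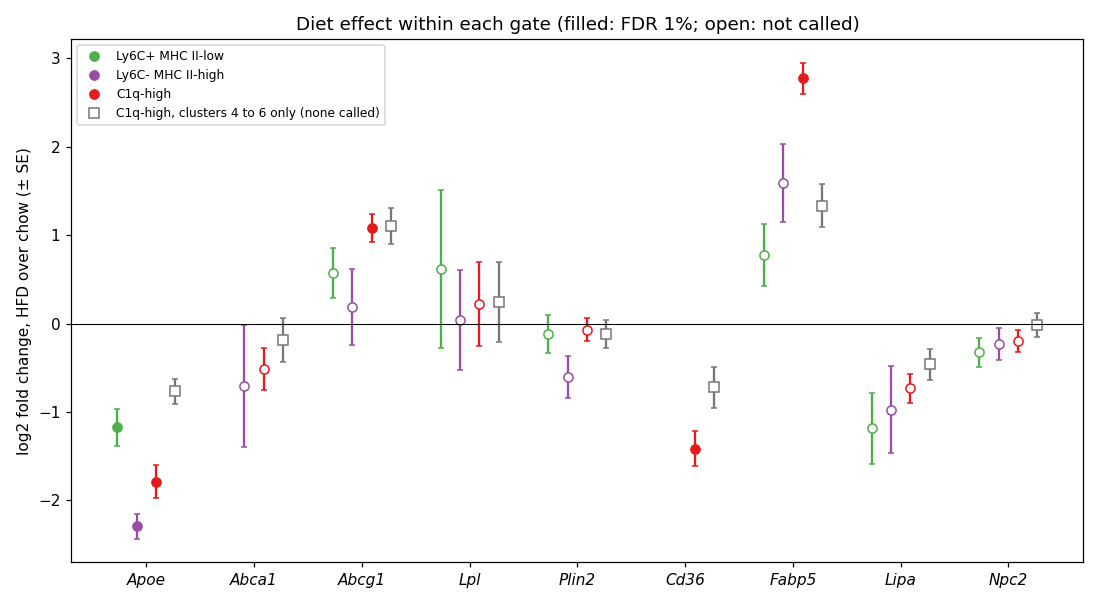
Log2 fold change of each gene, HFD over chow (vertical axis, bars show ± 1 SE), in the 3 tested gates (green, purple and red) and in C1q-high cells of Ward clusters 4 to 6 (grey squares). Filled points passed the test at an adjusted p under 0.01, and Fabp5 in C1q-high cells, at 2.78, and Apoe in Ly6C- MHC II-high cells, at -2.30, are the extremes.

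The diet differences within the C1q-high gate were set against the C1q level of its cells, in subsets chosen after seeing the data. Median C1q was 189, 198, 136 and 116 UMIs per 10000 in the gate, lower in both HFD mice. In the cells with a C1q score at least 4 times the threshold (703, 1728, 293 and 390 cells), where the medians were 195, 203, 193 and 175, the same 4 members were called: Fabp5 at 2.55 (adjusted p = 7.9e-05), Abcg1 at 1.10 (0.00347), Cd36 at -1.16 (0.0073) and Apoe at -1.37 (0.00109), among 6.13% of all genes. Cells were also clustered on 6415 variable genes that left out the members and their pathway lists (Ward hierarchical clustering, 6 clusters). Clusters 4, 5 and 6 consisted to 97.3%, 100% and 99.7% of C1q-high cells and held 752, 1814, 205 and 210 of them, with median C1q of 191, 199, 207 and 203. Cluster 3, of which 46.3% were C1q-high and most others MHC II-high below the C1q threshold, held 28 and 57 cells of chow mice against 351 and 807 of HFD mice. Among C1q-high cells of clusters 4 to 6, 0.239% of 5013 genes were called, and the adjusted p of the members ran from 0.0372 to 0.961. There the change was -0.77 for Apoe (adjusted p = 0.0372), 1.33 for Fabp5 (0.0372), 1.10 for Abcg1 (0.0391) and -0.72 for Cd36 (0.165), against -1.79, 2.78, 1.08 and -1.41 in the whole gate. The value for Abcg1 was near that of the whole gate, and the other values were smaller. Within single clusters Abcg1 changed by less, at 0.76 in cluster 4 (SE 0.21, adjusted p = 0.0632), 0.18 in cluster 5 (SE 0.33, adjusted p = 0.924) and 0.64 in cluster 6 (SE 0.31, adjusted p = 0.706). Its levels in cluster 4 were 175.8, 162, 247.5 and 327, above those of cluster 5, at 71.6, 90.3, 74.8 and 117, and the HFD mice had more cells in cluster 4 (101 and 159) than in cluster 5 (62 and 30), while the chow mice had fewer (182 and 493 against 430 and 942). Fabp5 changed by 1.37 in cluster 4 (SE 0.38, adjusted p = 0.0608), where it was 43.6, 75.5, 255 and 87.6, by -0.08 in cluster 5 (SE 0.58, adjusted p = 0.979), where it was 45.3, 32.7, 13.2 and 75.4, and by 0.78 in cluster 6 (SE 0.69, adjusted p = 0.876). Apoe changed by -0.56 in cluster 4 (SE 0.15, adjusted p = 0.0587), from 36650 and 43100 to 27650 and 27300, by -0.25 in cluster 5 (SE 0.11, adjusted p = 0.56), from 67530 and 65210 to 51500 and 59460, and by -0.49 in cluster 6 (SE 0.31, adjusted p = 0.806). Cd36 changed by -1.12 in cluster 4 (SE 0.35, adjusted p = 0.102), 0.13 in cluster 5 (SE 0.40, adjusted p = 0.956) and -0.79 in cluster 6 (SE 0.34, adjusted p = 0.649). In cluster 5, with 62 and 30 HFD cells, 0.176% of genes were called. In cluster 1, which held 93.6% of the Ly6C+ MHC II-low cells, Apoe fell by 1.31 (SE 0.23, adjusted p = 0.00111), among 1.53% of genes called, and in cluster 3 by 1.37 (SE 0.19, adjusted p = 0.00881), among 0.574%. Cluster 1 also held 80.7% of the cells in no gate. There Cd36 was 89.9, 14.2, 2.72 and 6.16, Lpl 204, 24.8, 20.9 and 102 and Plin2 733, 357, 491 and 397. Chow mouse 9 was higher for these genes there than in the Ly6C+ MHC II-low gate.

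All cells were also divided into 5 bins of equal size by their C1q score, as a description without a test. Apoe climbed through the bins in every mouse, but later in HFD mice. In the middle bin (79.1 to 169 C1q UMIs per 10000) Apoe was 52840, 48460, 13180 and 10550, and in the highest bin 66870, 63820, 44240 and 38660. Fabp5 had its highest HFD level in the middle bin, at 33.3, 48.9, 566 and 347.5, and came down to 46.3, 40.5, 144 and 138 in the highest. Abcg1 was 148, 234, 251 and 381 in the lowest bin and 130.1, 125.5, 221 and 237 in the highest. Cd36 of HFD mice rose from 7.61 and 7.85 in the lowest bin to 55.3 and 71.0 in the highest, where chow mice had 113 and 86.1. In all 5 bins both HFD mice were above both chow mice for Fabp5 and Abcg1, which held for 6.17% of 5545 genes, and below both for Apoe and Cd36, which held for 2.18%. Lipa was below in 4 of 5 bins, and Plin2, Lpl, Npc2 and Abca1 in at most 2.

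**Figure D4:**
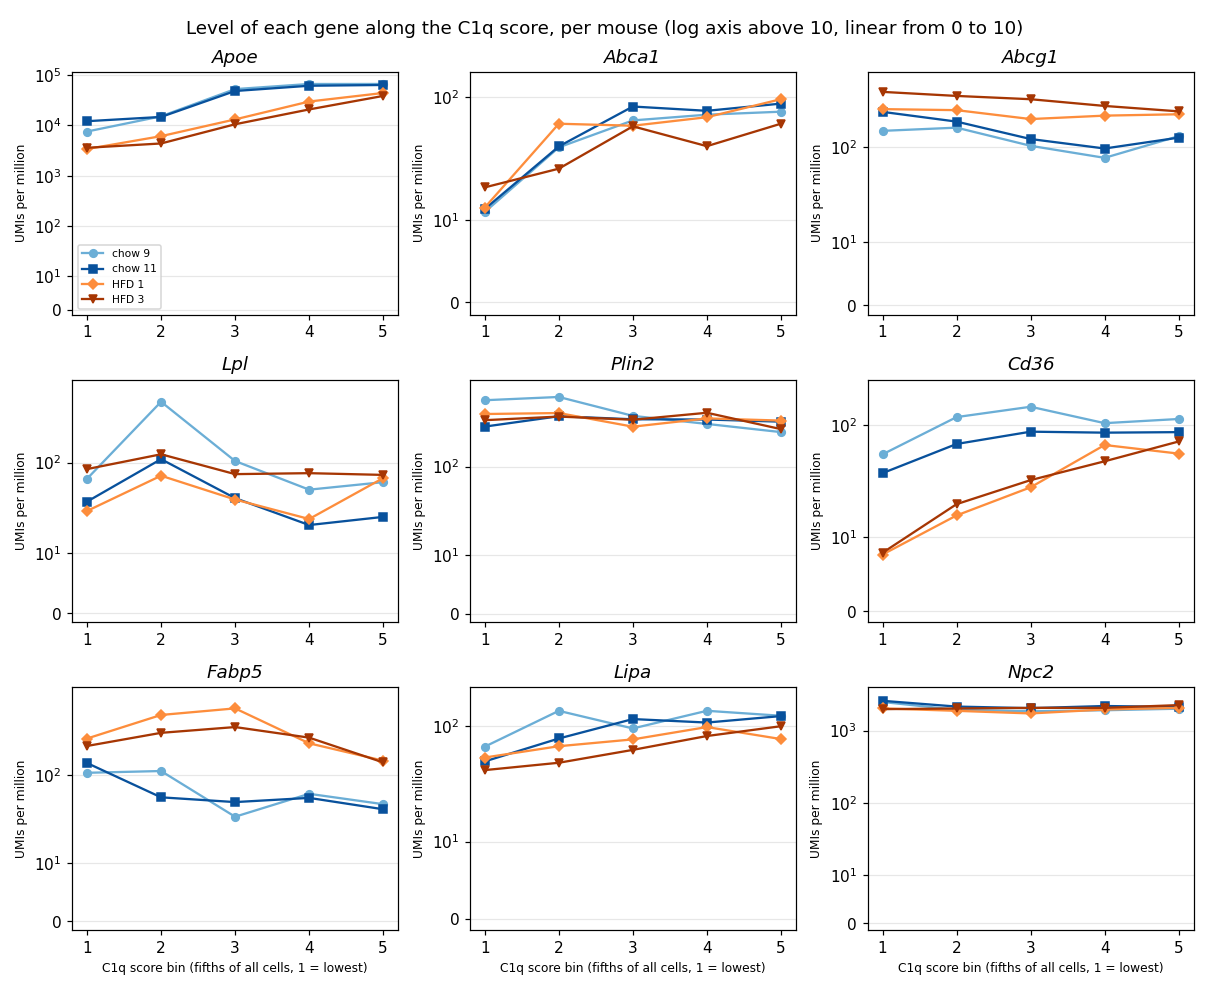
Level of each gene in CPM (vertical axis, logarithmic above 10 and linear from 0 to 10) in 5 equal bins of all cells by C1q score (horizontal axis, 1 is the lowest), 1 line per mouse. Apoe of the HFD mice approaches chow only in bin 5, the Fabp5 lines of the diets are farthest apart in bin 3, and Plin2 of chow mouse 9 comes down from 564 in bin 1 to 246 in bin 5.

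Cells below the C1q threshold were divided into 5 bins of equal size by their MHC II score, and by their Ly6c2 score into cells without a Ly6c2 UMI and 4 bins of the rest. Npc2 of the HFD mice went from 2450 and 2710 in the lowest of 5 MHC II bins to 1618 and 1723 in the highest, and Plin2 from 483 and 392 to 285 and 276. In the same bins Fabp5 went from 132 and 153 to 533 and 207.5, Apoe from 2768 and 3209 to 4733 and 4529 and Abca1, on 2 and 3 UMIs in the lowest bin, from 3.21 and 9.98 to 26.6 and 17.4. Chow mice had under 20 cells in several of these bins. With Ly6c2, Npc2 went from 1998, 1929, 1308 and 1691 in cells without a Ly6c2 UMI to 3438, 3158, 2421 and 2509 in the highest bin, although the chow values of that bin rest on 14 and 26 cells. Apoe of HFD mice moved little with Ly6c2, at 3433 and 3517 without and at 3888 and 4008 in the highest bin, while Apoe of chow mice went from 11980 and 14170 to 5122 and 10530. Fabp5 of HFD mice went from 527 and 286 to 131 and 180.

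Other genes of these pathways were read from 9 lists. None of the lists (other uptake genes, lysosomal lipid breakdown, esterification and lipid droplets, LXR, PPAR, cholesterol synthesis, fatty acid synthesis, fatty acid oxidation and lipid-associated macrophage genes) had a gene called between diets in Ly6C+ MHC II-low or Ly6C- MHC II-high cells with edgeR or DESeq2, while up to 1 and up to 4 genes of a list had an unadjusted p under 0.05 there, as did 12.2% and 16.4% of all genes. In C1q-high cells, where 10.5% of all genes were called, 1 of 6 tested LXR pathway genes was called: Nr1h3, which encodes LXR alpha itself, at 13.4, 22.4, 70.0 and 75.3, rose by 1.82 (SE 0.24, adjusted p = 0.00177). Of 4 tested fatty acid synthesis genes, Scd2, a stearoyl-CoA desaturase, rose by 1.89 (SE 0.25, adjusted p = 0.00171) and Fads1, a delta-5 fatty acid desaturase, fell by 1.27 (SE 0.23, adjusted p = 0.00651). Of 8 tested lipid-associated macrophage genes, 3 were lower: Trem2, a lipid-sensing receptor, by -1.46 (SE 0.23, adjusted p = 0.00346), the tetraspanin Cd63 by -1.05 (SE 0.14, adjusted p = 0.00163) and the lysosomal protease Ctsb by -0.71 (SE 0.12, adjusted p = 0.00474). The resident macrophage list of this gate was lower and the monocyte list higher in HFD mice, and their part in these changes was not tested. Values of these list genes in the subsets of the gate are not given here. None of 15 fatty acid oxidation, 12 cholesterol synthesis, 9 lysosomal lipid breakdown, 10 esterification and droplet, 4 uptake and 1 PPAR gene tested in this gate was called with edgeR. In these lists 6, 2, 5, 4, 2 and 0 genes had an unadjusted p under 0.05, as 36% of all genes did, and DESeq2 called 1 lysosomal gene. The median log2 change of the fatty acid oxidation genes was 0.40, with 13 of 15 above 0, against -0.02 over all genes.

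Between Ly6C+ MHC II-low and C1q-high cells 25.2% of all genes were called. A list gene entered this contrast when it passed the filter in any of the 3 gates. In Ly6C+ MHC II-low cells 6 of 8 lipid-associated macrophage, 5 of 7 LXR pathway and 8 of 11 esterification and droplet genes passed. So did 2 of 4 fatty acid synthesis, 13 of 15 fatty acid oxidation and 10 of 12 cholesterol synthesis genes. The counts of these lists, and the differences of genes named from them, are therefore a description, with no test against that share. Which of the named genes passed at the lower end is not given here. In the fit 5 of 8 lipid-associated macrophage genes rose and 2 fell, with Cd63 at 4.76 (SE 0.16, adjusted p = 5.4e-20), Cd9 at 3.46 (SE 0.16, adjusted p = 1.6e-16) and Tyrobp at -0.60 (SE 0.09, adjusted p = 1.8e-06). Of 9 lysosomal lipid breakdown genes 2 rose (Pla2g15, a lysosomal phospholipase, at 1.19 and Hexa at 0.55) and 1 fell (Stard3, -0.94). Of 7 LXR pathway genes 3 rose (Nr1h3 at 1.91, Mylip at 1.52 and Arl4c at 1.02) and 2 fell, among them Smpdl3a, a phosphodiesterase, at -2.67. The scavenger receptor gene Scarb1, 1 of 4 uptake genes tested, fell by 1.10 (SE 0.24, adjusted p = 0.000634), while Nceh1, a cholesterol ester hydrolase, rose by 1.24 and Hilpda, a lipid droplet protein, by 1.19. Of 11 esterification and droplet genes 2 were called and of 15 fatty acid oxidation genes 1. Of 4 fatty acid synthesis genes, Fads1 had a fitted difference of 2.37 (SE 0.58), higher in C1q-high cells. With 2 of the 4 passing at the lower end, this value is a description, with no test. None of 12 cholesterol synthesis genes was called in this contrast with edgeR or DESeq2, and 2 had an unadjusted p under 0.05, against 42.7% of all genes.

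The genes with the profile most like each member were sought over the 12 sums of 3 gates and 4 mice, which share mice and depth, by Pearson's r of log2 levels over 5545 genes. For Apoe they were Ms4a7 (0.98), Tnfaip3 (0.97) and Mmp13 (0.97), for Abca1 Svbp, Ctsh and Ifi27 (all 0.95), and for Cd36 Herpud1 (0.94), Pmepa1 (0.93) and Sqstm1 (0.93). For Abcg1 they were Psma6 (0.93), H2-T22 (0.9) and Nt5c (0.9), and for Fabp5 Lsm4 (0.95), Psme1 (0.92) and Cox5a (0.91). For Lipa they were Mef2c (0.92), Dusp1 (0.91) and Cd33 (0.9), for Npc2 Gng2 (0.91), Gga1 (0.88) and Glipr1 (0.88), for Plin2 Dhrs7 (0.86), Tmem50a (0.85) and Hacd4 (0.84), and for Lpl Crlf3 (0.89), Csnk2a2 (0.77) and Timm10 (0.7). Among the members, Apoe was most like Cd36 (0.86) and Lipa (0.83).

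Over all cells of a mouse, without regard to gate, the levels mixed these changes with the smaller share of C1q-high cells in HFD mice, which was 84.5%, 92.4%, 47.4% and 42.2% in the 4 mice. Apoe was 61830, 62630, 12250 and 9380 (TMM-scaled), and Fabp5 was 62.7, 55.4, 330 and 249.5. The log2 ratios of the means were -2.52 for Apoe, -2.25 for Cd36, -1.10 for Lipa, -1.09 for Abca1, 1.09 for Abcg1 and 2.29 for Fabp5. The diets did not overlap for these genes, nor for TMM-scaled Plin2 and Npc2, so that 8 of 9 members were apart, 2 with HFD above and 6 below, against 34.0% and 35.7% of 4955 genes. The exact two-sided permutation test gave 0.33 for each of the 8, the smallest p that 2 against 2 mice allow. Npc2 was -0.26 with TMM and -0.04 without it, where its diets overlapped. The direction of Plin2 (-0.16 with TMM and 0.06 without) and Lpl (-0.17 and 0.06) depended on the scaling.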

How the data were processed

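UMI counts were analysed per mouse and gate. Per the labels and the study's methods, the authors made droplet 3' libraries, quantified them against Ensembl release 97 (mm10) with tools that the submitters' processing notes give as bustools (version 0.39.2) and kallisto (version 0.46.0), filtered cells and genes, kept the monocyte and macrophage types, and deposited the counts without normalization. These filters decide which cells and genes can be seen here. Endings of the cell names gave the mouse, and 23 barcodes occurred in more than 1 mouse. Of 11820 gene identifiers, 11819 were matched to GENCODE M21 (GRCm38).

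Gate thresholds are Otsu's on log10(score + 1), C1q over all cells and the others over C1q-low cells. Within 1.5 fold of the C1q threshold lay 198 of 5420 cells. Sums were tested with edgeR (version 4.0.16) in R (version 4.3.3), with TMM normalization and the quasi-likelihood test, for genes above 1 CPM in at least 2 sums and with a UMI in at least 5% of cells, where each mouse had at least 20 cells. Stage contrasts and the difference of the diet effect between stages came from 1 fit with a term for each mouse. Alternatives were DESeq2 (version 1.42.0), the likelihood-ratio test, other scalings, filters and thresholds, Ward clusters (scran version 1.30.0, 8 principal components), removal of doublets (Scrublet in scanpy version 1.11.5, 0.757% of cells, kept otherwise) and leaving out each mouse. Named genes are the 9 members, per pathway list and comparison up to 4 called genes with the smallest adjusted p, and the 3 genes most like each member. Members and lists were chosen with earlier results of these data known, and 3 list genes are not reported here. With 2 mice per diet, p-values measure the spread between these mice only, and the depth of 3824228 to 7947893 UMIs per mouse limits rare genes such as Cd36 in monocytes. Intervals cover counting error only.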

Additional observations from a re-analysis of the deposited data

Results flagged for a closer look

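Trem2, which encodes a lipid-sensing receptor, was singled out because its diet effect differed between gates by the interaction test. The effect in C1q-high minus that in Ly6C+ MHC II-low cells was -1.98 (SE 0.34, edgeR adjusted p = 0.00051), with levels of 266, 204, 114 and 76.3 CPM in C1q-high cells of chow 9, chow 11, HFD 1 and HFD 3 and of 112, 34.5, 122 and 87.8 in Ly6C+ MHC II-low cells. Of 5545 genes, 1.7% were called in this test, and none of the 9 members was. The resident macrophage list was lower and the monocyte list higher in C1q-high cells of HFD mice, and their part in this difference was not tested.

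Abcg1 and Fabp5 were singled out in the Ly6C+ MHC II-high cells, which entered no diet comparison, because their pooled UMIs gave counting intervals above chow. Abcg1 had 507 UMIs in 364 HFD cells, or 433.8 CPM (exact 95% Poisson interval 397 to 473), against 11 UMIs in 20 chow cells, or 210 (105 to 376). Fabp5 had 202 UMIs, or 172.8 CPM (150 to 198), against 1 UMI, or 19.1 (0.483 to 106). In the other direction the intervals were also apart for Apoe, at 4741 CPM (4617 to 4867) in HFD against 18730 (17580 to 19940) in chow cells, and Npc2, at 2103 (2021 to 2188) against 2959 (2512 to 3463). In chow 9, chow 11, HFD 1 and HFD 3 Abcg1 was 0, 237.9, 306 and 476 CPM and Fabp5 0, 21.6, 192.5 and 166, so that Abcg1 of HFD mouse 1 lay within the chow interval. The intervals are not a test between diets and cover counting error only, and the 20 chow cells came from mice that gave 2 and 18 of them.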

How the results depend on the processing

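Of 266 values of the HFD effect on single members under alternatives that kept all mice, 255 stayed on their side of the threshold, and none of the called values changed sign. In 8 of the 255, none of them called, the sign changed: Plin2 in Ly6C+ MHC II-low cells (-0.12) was 0.09 without a filter on low counts and 0.02 with thresholds times 2, Lpl there (0.61) was -0.94 with Ward stages, and in Ly6C- MHC II-high cells Npc2 (-0.23) was 0.07 without a filter, Abcg1 (0.19) was -0.07 with thresholds times 2, and Lpl (0.04) was -0.49 with thinned sums, -1.59 with thresholds times 2 and -0.08 without doublets. The sign also changed in 7 of 81 differences of the diet effect and 5 of 207 stage contrasts of members, none of them called. Of the 207, 2 lost a call, Abca1 from Ly6C- MHC II-high to C1q-high with DESeq2 (1.27, adjusted p = 0.02) and Lipa between the ends with thresholds divided by 2 (0.44, adjusted p = 0.0764). In 10 a call was gained: Lipa from Ly6C- MHC II-high to C1q-high with the likelihood-ratio test, without a filter and with thresholds times 2, Abca1 with the first and last of these and Fabp5 with the first 2 from Ly6C+ MHC II-low to Ly6C- MHC II-high, Abcg1 from Ly6C- MHC II-high to C1q-high with thresholds times 2 (-0.55), and Plin2 (-0.43) and Npc2 (-0.29) between the ends with Ward stages. Abca1 was too rare to pass the main filter in Ly6C+ MHC II-low cells, so its gains are a description, with no test. Genes called between diets in Ly6C+ MHC II-low cells (24) numbered 97 with the likelihood-ratio test, 113 without a filter on low counts, 7 with sums thinned to equal depth, 46 and 37 with thresholds times and divided by 2, 68 with stages from Ward clusters and 40 without immunoglobulin-rich cells. In Ly6C- MHC II-high cells (57) they numbered 179 with the likelihood-ratio test, 35 with the adjusted degrees of freedom, 193 without a filter, 1 thinned and 102 with thresholds times 2, and in C1q-high cells (531) 926, 912 without a filter, 876 with Ward stages, 314 with a C1q score at least 4 times the threshold and 12 in Ward clusters 4 to 6. The likelihood-ratio test called 676 genes for C1q-high against Ly6C- MHC II-high (439), 608 for Ly6C- MHC II-high against Ly6C+ MHC II-low (396) and 173 for the difference of the diet effect (94), for which Ward stages gave 213.

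The Apoe effect in Ly6C+ MHC II-low cells lost its call with RLE size factors (-1.17, adjusted p = 0.0112) and thinned sums (-1.12, adjusted p = 0.113). Fabp5 in Ly6C- MHC II-high cells passed with the likelihood-ratio test (1.60), without a filter (1.89) and with thresholds times 2 (2.05), and Lipa in C1q-high cells with the likelihood-ratio test (-0.74) and Ward stages (-0.99). In Ward clusters 4 to 6, Apoe (-0.77), Abcg1 (1.10), Cd36 (-0.72) and Fabp5 (1.33) lost their calls. The difference of the diet effect passed for Fabp5 with the likelihood-ratio test (1.83), without a filter (1.77), with thresholds divided by 2 (2.02) and with Ward stages (1.86), and for Apoe without a filter (-0.85) and with Ward stages (-1.08). The immunoglobulin, C1q and cluster 4 to 6 subsets were chosen after seeing the data, and the cause of these shifts was not tested.

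Without 1 mouse, the counts ran from 13 to 37 (Ly6C+ MHC II-low), 0 to 193 (Ly6C- MHC II-high, 0 without either HFD mouse, where 1 HFD mouse remains and is assumed to vary like the chow mice), 15 to 762 (C1q-high, 100 without HFD 1 and 15 without HFD 3), 254 to 338, 182 to 306 and 41 to 59 (the contrasts above). Apoe ran from -1.44 to -0.81, from -2.31 to -2.26 and from -2.07 to -1.54 in the gates in that order, Abcg1 from 0.90 to 1.25 in C1q-high and from -0.56 to 2.02 in Ly6C- MHC II-high cells, Cd36 from -1.64 to -1.19 in C1q-high cells, Fabp5 from 0.97 to 2.05 in Ly6C- MHC II-high cells, and the Fabp5 difference of the diet effect from 1.40 to 2.32. Ward clusters gave no cluster to Ly6C- MHC II-high, and a minimum of 10 cells could not be applied to the 2 cells of chow 9. No paired analysis was possible because the diets share no replicate numbers.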
